A study of Mus musculus with 6 samples.

Results

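The 10 genes of the Hippo pathway described here were measured in mouse embryonic ventricles: Yap1 and Wwtr1, which encode the coactivators YAP and TAZ, the transcription factor genes Tead1, Tead2, Tead3 and Tead4, the kinase genes Lats1 and Lats2, and the target genes Ctgf and Cyr61. They were picked for their place in the pathway, with earlier results of these data known. They were found by symbol, and all 10 were among the 23284 genes of the deposited expression table. RNA-seq had been made from heart ventricles at E9.5 of 6 embryos, 3 WT and 3 KD. All embryos were labelled as strain C57BL/6 and made by tetraploid complementation, a method that builds the embryo itself from injected ES cells. The KD embryos carry Tbx5ua -/-, with polyadenylation signals placed in the second exon of both alleles of this lncRNA, a divergent neighbour of Tbx5, and the WT embryos do not. The KD ES cells were C57BL/6J-derived and clonal, and the sources used here do not say which ES cell line each sequenced embryo came from. The deposited table pools the embryos of a group and gives 1 expression value per gene and group in FPKM, the number of sequenced fragments corrected for transcript length and for sequencing effort. It holds no value of a single embryo and no read counts. The spread between embryos and the depth therefore cannot be read from these values, and every difference below is a description with no test.

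The Hippo pathway relays cell contact, polarity and tension to the nucleus. When the kinases MST1 and MST2 (genes Stk4 and Stk3) are active they switch on LATS1 and LATS2, which phosphorylate YAP and TAZ and keep them in the cytoplasm. Unphosphorylated YAP and TAZ enter the nucleus, bind TEAD proteins on DNA and raise the transcription of targets such as Ctgf and Cyr61. In the embryonic heart the pathway is known for restraining cardiomyocyte division, and loss of Yap1 from cardiomyocytes leaves a thin myocardium. Much of this control acts on protein phosphorylation and location, which RNA levels do not show.

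TEAD proteins recognise the letters GGAATG, read as CATTCC on the other strand, and windows from 250 bases before to 50 bases after RefSeq start sites (GRCm38.p6) were searched for these 6 letters on both strands. The upstream 250 bases of 3 genes are shown as examples. Cyr61 is the most abundant of the 10 genes. Ankrd1 and Igfbp3 come from a wider list of targets. They were its only expressed genes (those reaching 1 FPKM in WT or in KD) that differed by more than 1.5-fold between groups on the scale of log2(FPKM + 1). Ankrd1 and Igfbp3 were thus chosen by their values, and a link between the letters and the differences was not tested. All 3 genes are on the minus strand, each line reads 5′ to 3′ towards the start site, and capitals mark the TEAD letters. The Cyr61 stretch is chr3:145649986-145650235, the Ankrd1 stretch chr19:36119845-36120094 and the Igfbp3 stretch chr11:7213924-7214173.
Cyr61: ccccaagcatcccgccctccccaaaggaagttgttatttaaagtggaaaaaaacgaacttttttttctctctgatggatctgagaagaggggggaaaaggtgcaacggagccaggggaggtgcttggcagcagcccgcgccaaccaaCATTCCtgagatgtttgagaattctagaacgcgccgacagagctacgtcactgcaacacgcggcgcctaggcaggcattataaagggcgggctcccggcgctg
Ankrd1: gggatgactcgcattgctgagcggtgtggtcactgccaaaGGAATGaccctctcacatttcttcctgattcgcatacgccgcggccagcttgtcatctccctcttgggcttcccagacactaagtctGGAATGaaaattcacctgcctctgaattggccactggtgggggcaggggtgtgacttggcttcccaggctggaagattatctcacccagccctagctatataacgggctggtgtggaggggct
Igfbp3: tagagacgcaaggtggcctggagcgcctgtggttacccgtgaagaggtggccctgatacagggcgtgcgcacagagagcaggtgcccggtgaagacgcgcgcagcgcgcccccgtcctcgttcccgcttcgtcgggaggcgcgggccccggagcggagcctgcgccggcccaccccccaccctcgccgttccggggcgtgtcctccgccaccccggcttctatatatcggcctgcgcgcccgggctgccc

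The Cyr61 stretch held the letters once, from 103 to 98 bases before the start site. The Ankrd1 stretch held them at 2 places, from 210 to 205 and from 123 to 118 bases before the start site, and the Igfbp3 stretch did not hold them. Windows were found for 7 of the 10 genes. The letters stood in at least 1 window of 5 of these 7, namely Yap1, Wwtr1, Tead3, Lats2 and Cyr61, and in no window of Tead2 or Lats1. By window, 7 of 11 held them, with overlapping windows of Wwtr1 sharing 1 place and the Lats2 and 1 Tead3 match lying after the start site, against 14.7% of all 32851 windows. On the wider list of 22 targets, which includes Lats2 and Cyr61, 7 of 17 windows held them, in 7 of the 15 genes with a window. The windows of the 10 genes were also rich in G and C, with a median of 67.7% against 52.7% over all windows. A match of letters is a description of the sequence and no evidence of binding.

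None of the 10 genes was past 1.5-fold in either direction on the scale of log2(FPKM + 1), where 3.66% of the 11606 expressed genes were past it, 2.2% with a higher and 1.46% with a lower value in KD, so a count of 0 among 10 is near the background. The largest difference among them was the lower level of Ctgf in KD, at -0.36 on this scale, and the next was the higher level of Lats1, at 0.31. Of the 10 genes 6 had a higher and 4 a lower value in KD, with a median difference of 0.13. Of all 11606 genes 5907 had a higher and 5699 a lower value, with a median of 0.00426, a 5th percentile of -0.36 and a 95th percentile of 0.43. All 10 lay between these percentiles, Ctgf just inside the lower one. All 10 passed the filter on low values, Lats1 through its KD value alone. Lats1 is among the 6 counted as higher and, by the filter, could only be higher in KD. The 10 genes stood in the same order of level in both groups, from Cyr61, Tead2, Ctgf, Yap1, Tead1, Wwtr1 and Lats2 to Tead4, Tead3 and Lats1. With no spread between embryos it cannot be said which neighbours in that order differ, and Tead1 and Wwtr1 in WT were 9.22 and 9.19 FPKM.

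**Figure D1:**
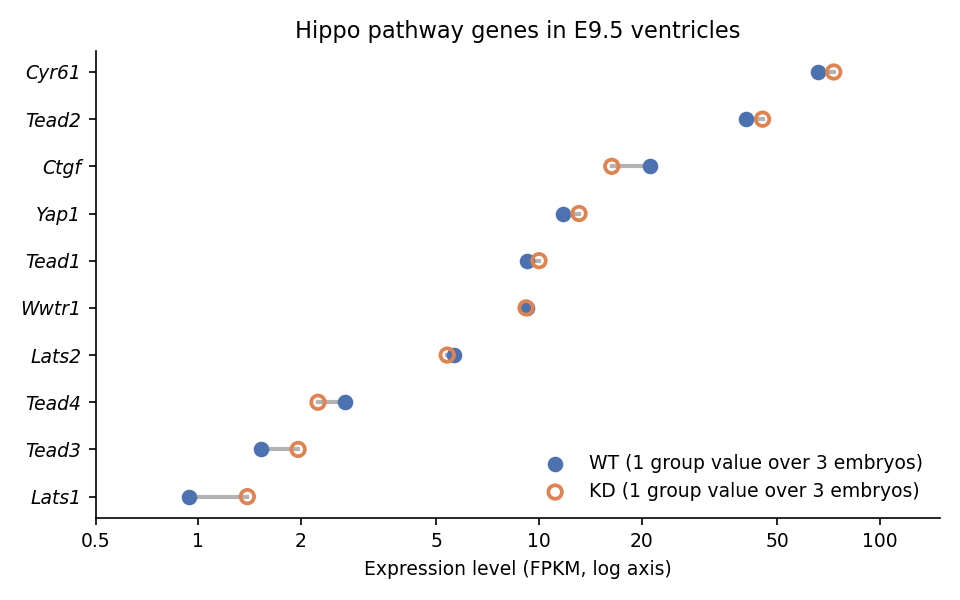
Level of each of the 10 genes in FPKM on a log axis, with a filled point for the WT group value and an open point for the KD group value, each over 3 embryos. The points of a gene lie close together over a range from 0.937 FPKM for Lats1 in WT to 73.3 FPKM for Cyr61 in KD, and the widest gaps on this axis are those of Lats1, Tead3 and Ctgf.

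Yap1 encodes YAP, the main coactivator of the pathway, and lies on chromosome 9 from 7932001 to 8004596 (mm10). Its level was 11.7 in WT and 13.1 FPKM in KD, a difference of 0.15 on the log2(FPKM + 1) scale. A larger difference in either direction was seen in 46.7% of expressed genes. Wwtr1, on chromosome 3 from 57455644 to 57575910, encodes TAZ, the close relative of YAP that binds the same TEAD proteins. Wwtr1 was the gene with the least difference of the 10, with 9.19 in WT and 9.16 FPKM in KD. Yap1 thus held 56.1% of the summed Yap1 and Wwtr1 level in WT and 58.9% in KD, and the sum itself was 20.9 and 22.3 FPKM.

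TEAD proteins give the coactivators their hold on DNA, and Tead2 was by far the most abundant TEAD transcript in these ventricles. Tead2, on chromosome 7 from 45215753 to 45233619, stood at 40.5 in WT and 45.3 FPKM in KD, a difference of 0.16 on the log2(FPKM + 1) scale. It made up 75.0% of the summed TEAD level in WT and 76.1% in KD. Tead1, which binds the MCAT elements of many muscle genes and is needed for heart growth, lies on the same chromosome from 112679320 to 112906805. Tead1 had 9.22 in WT and 10.0 FPKM in KD, 17.1% and 16.8% of the family sum. Tead2 exceeded Tead1 4.39-fold in WT and 4.53-fold in KD.

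The remaining TEAD genes were expressed at a low level and differed in opposite directions. Tead4, best known for its role in the trophectoderm and in skeletal muscle, lies on chromosome 6 from 128227143 to 128300813. It had 2.70 in WT and 2.25 FPKM in KD, a difference of -0.19 on the log2(FPKM + 1) scale. Tead3, which is prominent in placenta, lies on chromosome 17 from 28331673 to 28350805. It had 1.52 in WT and 1.96 FPKM in KD, a difference of 0.23. Tead4 was therefore the third and Tead3 the fourth TEAD gene by level in both groups, with 5.01% and 2.83% of the family in WT and 3.77% and 3.30% in KD. Summed over the 4 genes, the TEAD level was 53.9 in WT and 59.5 FPKM in KD.

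LATS kinases are the last step before YAP and TAZ, and Lats2 was the more abundant of the pair. Lats2, on chromosome 14 from 57689662 to 57746123, is itself a target of YAP and so part of a feedback loop. Its level was 5.62 in WT and 5.38 FPKM in KD, a difference of -0.05 on the log2(FPKM + 1) scale. Lats1, on chromosome 10 from 7681209 to 7716461, had the lowest level of the 10 genes, at 0.937 in WT and 1.39 FPKM in KD. The difference of 0.31 on the log2(FPKM + 1) scale corresponds to a plain ratio of 1.49, since the added 1 FPKM weighs heavily at this level. Lats2 exceeded Lats1 6.00-fold in WT and 3.86-fold in KD, and the share of Lats1 in the summed level was 14.3% in WT and 20.6% in KD. The sum of the pair, 6.56 in WT and 6.77 FPKM in KD, differed less than Lats1 alone. Differences are wider at low levels in general: 24.7% of the 3902 expressed genes with a mean FPKM below 5 were past a smaller mark of 0.32 on the log2(FPKM + 1) scale, against 7.62% of the 2703 genes with a mean from 20 to below 100.

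**Figure D2:**
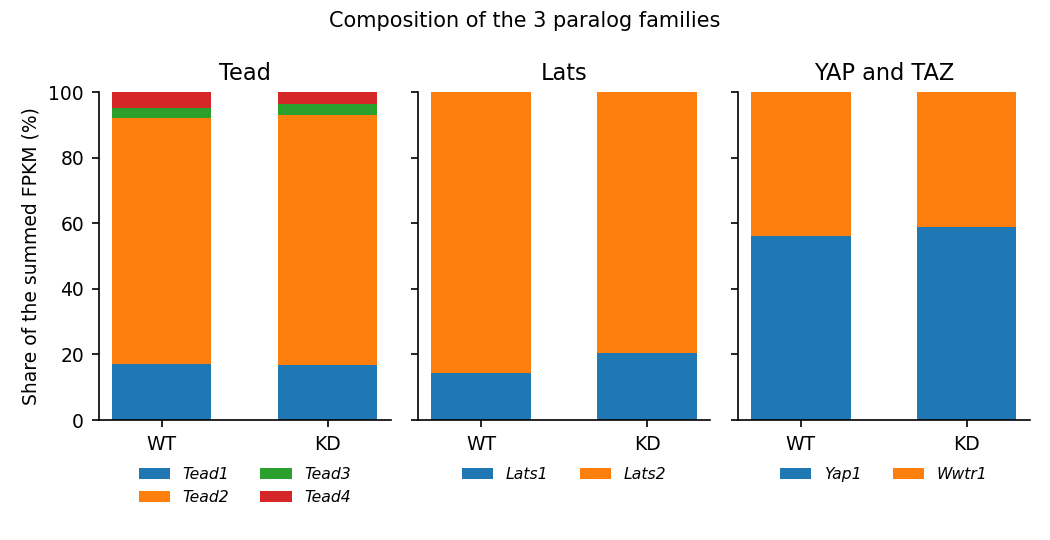
Share of the summed FPKM in percent taken by each gene of the TEAD, LATS and YAP-TAZ families, as stacked bars for the WT and the KD group value. Tead2 holds 75.0% of the TEAD level in WT and 76.1% in KD, while Lats1 goes from 14.3% to 20.6% of the LATS level.

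Ctgf and Cyr61, the most used readouts of YAP and TEAD activity, differed in opposite directions. Both encode secreted matricellular proteins of the CCN family, which act on cell adhesion and matrix production. Ctgf, also called Ccn2, lies on chromosome 10 from 24595442 to 24598682 and had 21.2 in WT and 16.3 FPKM in KD, a plain ratio of 0.770. It was the only one of the 10 genes past the smaller mark of 0.32 on the log2(FPKM + 1) scale. Of all expressed genes 15.2% passed it, 8.8% with a higher and 6.4% with a lower value in KD. Without the added 1 FPKM, Lats1 at 0.57 and Tead3 at 0.36 were past it too, both higher in KD. The share of all expressed genes past it without the added 1 FPKM was not computed. A larger difference than that of Ctgf was seen in 12.5% of expressed genes. Cyr61, also called Ccn1, lies on chromosome 3 from 145646971 to 145649985 and had 66.0 in WT and 73.3 FPKM in KD, a difference of 0.15 on the log2(FPKM + 1) scale. For Cyr61, 46.2% of expressed genes had a larger difference in either direction. Cyr61 exceeded Ctgf 3.11-fold in WT and 4.48-fold in KD. Among the other CCN genes Wisp1 had 3.27 in WT and 3.96 FPKM in KD, while Nov, Wisp2 and Wisp3 stayed below 1 FPKM in both groups.

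**Figure D3:**
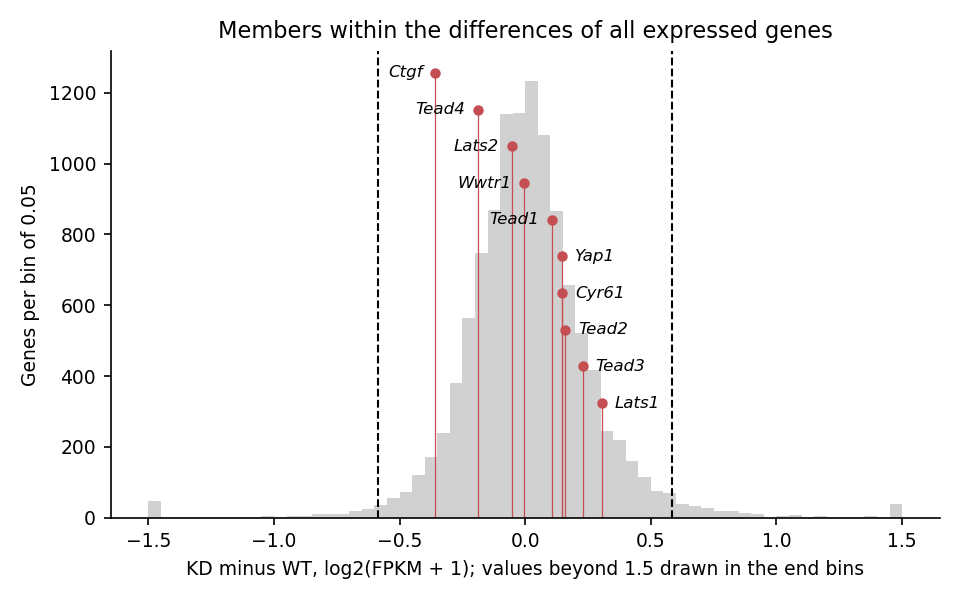
Histogram of the KD minus WT difference on the log2(FPKM + 1) scale over the 11606 expressed genes, with the 10 genes marked in red at arbitrary heights and dashed lines at 1.5-fold. All 10 lie between the dashed lines, from -0.36 for Ctgf to 0.31 for Lats1.

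Some of these values rest on reads that could belong to another gene. In the GENCODE release M21 annotation of mm10, exons of 4 of the 10 genes overlap exons of another gene: Yap1, Tead2 and Ctgf on the opposite strand and Lats2 on the same strand. Smart-Seq2 libraries keep no strand, so reads from overlapping exons cannot be told apart. For Tead2 the neighbour is Cd37, a leukocyte gene listed at 0.233 in WT and 0.555 FPKM in KD. The table places none of the 10 genes in a locus shared with another gene.

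Upstream of LATS, the genes of the kinase module stayed within 1.5-fold on the log2(FPKM + 1) scale. All 18 genes listed for this module were expressed, and none was past 1.5-fold, with 7 higher and 11 lower in KD and a median difference of -0.05 on the log2(FPKM + 1) scale. Over all expressed genes 3.66% were past 1.5-fold, and 5907 were higher and 5699 lower, so a count of 0 among 18 is near the background. The most abundant were Mob1a, Stk3 and Nf2. Mob1a, which encodes an adaptor that activates LATS, had 44.3 in WT and 36.6 FPKM in KD. Stk3, encoding MST2, had 20.05 in WT and 18.6 FPKM in KD, and Stk4, encoding MST1, had 7.82 and 7.61 FPKM. Nf2, whose product merlin brings LATS to the membrane, had 13.6 in WT and 14.6 FPKM in KD.

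The lowest and the highest difference of the kinase module were those of Map4k2 and Map4k3, whose products phosphorylate LATS in parallel to MST1 and MST2. Map4k2 had 3.98 in WT and 2.44 FPKM in KD, a difference of -0.53 on the log2(FPKM + 1) scale and a plain ratio of 0.614, which without the added 1 FPKM lies past 1.5-fold. Map4k3 went the other way, with 3.43 in WT and 4.46 FPKM in KD, a difference of 0.30. Exons of each of these genes overlap an annotated gene on the opposite strand. Past the smaller mark of 0.32 were 2 genes of the module, both lower in KD: Map4k2 and Taok3, which encodes a kinase acting on MST1 and MST2 and had 3.22 in WT and 2.33 FPKM in KD. Over all expressed genes 15.2% were past this mark, 6.4% with a lower value in KD, so the count of the module is near the background. The scaffold gene Sav1, at 1.21 in WT and 1.34 FPKM in KD, shares its locus in the table with Map4k5 and 6 other genes.

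The next list holds regulators that bind YAP or TAZ directly, or act on LATS through cell contact. Of 22 listed, 21 passed the filter, 6 of them higher and 15 lower in KD, and none was past the mark of 0.32 on the log2(FPKM + 1) scale. Without the added 1 FPKM, Scrib and Amot lie past this mark, at plain ratios of 0.775 and 0.792. Over all expressed genes 5907 were higher and 5699 lower in KD, and whether the split of the list differs from this was not tested. Of all expressed genes 15.2% were past 0.32 and 3.66% were past 1.5-fold. The share past 0.32 was 24.7% at a mean below 5 FPKM and 13.6% from 5 to below 20. It was 7.62% from 20 to below 100 FPKM and 6.38% above that, and the list has genes in each of these ranges. The most abundant were genes of 14-3-3 proteins, which hold phosphorylated YAP in the cytoplasm: Ywhae had 659 in WT and 638 FPKM in KD, Ywhaz had 595 and 582 FPKM, and Ywhaq had 559 and 563 FPKM. Amot, encoding angiomotin, which tethers YAP at cell junctions, was at the low end of the list with 6.10 in WT and 4.83 FPKM in KD, a difference of -0.28 on the log2(FPKM + 1) scale. Wtip, a LIM domain gene of the Ajuba family whose products restrain LATS, was at the high end with 4.42 in WT and 5.48 FPKM in KD, a difference of 0.26.

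Of the Vestigial-like cofactors that compete with YAP for TEAD, Vgll4 alone was expressed. It had 34.7 in WT and 30.1 FPKM in KD, a difference of -0.20 on the log2(FPKM + 1) scale, so that its level was above those of Yap1 and Wwtr1 in both groups. Vgll1 and Vgll2 were listed at 0 in both groups, and Vgll3 was at 0.0344 in WT and 0.206 FPKM in KD.

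A wider list of 22 genes known as YAP and TEAD targets in other cells, which includes Ctgf, Cyr61 and Lats2, had values on both sides of 0. Of these, 17 passed the filter on low values, 8 of them higher and 9 lower in KD, and their median difference was -0.02 on the log2(FPKM + 1) scale. Past 1.5-fold were 2 of the 17, in opposite directions, where 2.2% of expressed genes were higher and 1.46% lower past this mark. Igfbp3, which encodes a binding protein of insulin-like growth factors, had 9.55 in WT and 17.4 FPKM in KD, a difference of 0.80. Ankrd1, which encodes a cardiac ankyrin repeat protein bound to titin and is induced by stretch, had 347 in WT and 231 FPKM in KD. Its difference of -0.587 lies just past the mark of 0.585. Amotl2, an angiomotin family gene that like Lats2 feeds back on YAP, had 30.9 in WT and 29.1 FPKM in KD, and Ccdc80, a secreted matrix gene, had 19.9 and 21.4 FPKM. Ankrd1 alone made up most of the summed level of the list, which was 568 in WT and 460 FPKM in KD.

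**Figure D4:**
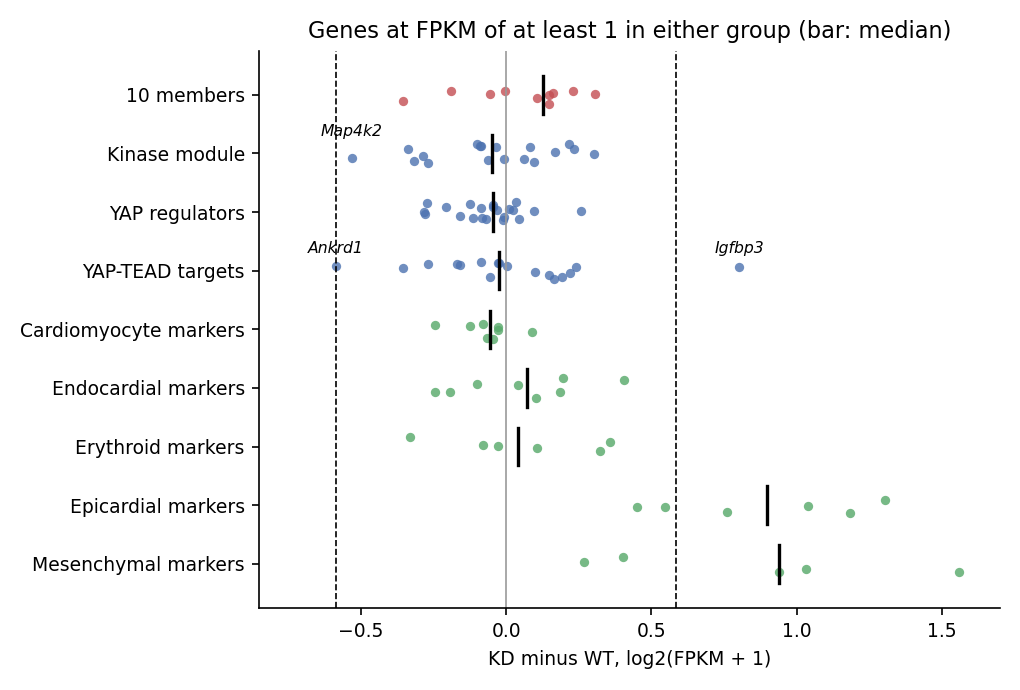
KD minus WT difference on the log2(FPKM + 1) scale of each expressed gene, with 1 row of points per list, a black bar at the median of the list and dashed lines at 1.5-fold. The Hippo lists centre near 0 with Igfbp3 at 0.80 and Ankrd1 at -0.59 as their outermost points, while the medians of the epicardial and mesenchymal markers are 0.90 and 0.94. The mesenchymal median is the value of Pdgfra itself. Pdgfra and the epicardial marker Aldh1a2 passed the filter through KD alone and so could only be higher there.

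Markers of other cell types are given beside these values, and over all expressed genes 2.2% were higher and 1.46% lower in KD past 1.5-fold, 3.66% in all. The tissue was labelled as heart ventricles, and all 8 cardiomyocyte markers were expressed, with Myl7 at 13643 in WT and 12907 FPKM in KD and none past 1.5-fold. Summed endocardial markers were 155 in WT and 170 FPKM in KD over 8 genes, none past 1.5-fold, and erythroid markers 11440.4 and 11516 FPKM over 6 genes, none past 1.5-fold. All 6 epicardial markers were higher in KD, 4 of them past 1.5-fold, and their sum was 47.0 in WT and 95.9 FPKM in KD. Of 6 mesenchymal markers 5 passed the filter, all higher in KD and 3 past 1.5-fold, and their sum was 31.3 in WT and 50.8 FPKM in KD. The epicardial marker Aldh1a2, at 0.872 in WT and 1.74 FPKM in KD, and the mesenchymal marker Pdgfra, at 0.969 in WT and 2.78 FPKM in KD, passed the filter through KD alone and so could only be higher there. Pdgfra is counted among the 3 mesenchymal markers past 1.5-fold, and Aldh1a2 is not among the 4 epicardial ones. No marker of these 5 lists was at 0 in either group. The part of these cell types in the values of Ctgf, Lats1, Ankrd1 or Igfbp3 was not tested. In bulk ventricles more or fewer cells of a type cannot be told apart from more or less RNA per cell.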

How the data were processed

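RNA was measured in ventricles of 3 WT and 3 KD embryos at E9.5. Smart-Seq2 libraries were made from 10 ng of total RNA with 12 PCR cycles on the cDNA and 9 on the tagged fragments, and read single-end. Per the labels, the authors used TopHat, Bowtie2 and Cuffdiff on mm10, and their versions and the gene annotation are not given in the sources used here. The authors deposited 1 Cuffdiff table of FPKM, 1 value for a gene in each group (the KD group is named KO there). Its fold change, test statistic, p-value, q-value and call columns hold the authors' own comparison and were not used. Low values were not whole multiples of a step, so read numbers could not be recovered. An FPKM corrects for transcript length, so genes can be compared by level, but a PCR-amplified library counts copies rather than molecules.

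Differences are KD minus WT of log2(FPKM + 1), over the 11606 genes that reached 1 FPKM in WT or KD. A gene was counted where the difference reached 1.5-fold, and no test was run because each group has 1 value. Table positions start from 0, and 1 was added to each start. Genes named were all 10 members and, from each other list of the pathway (kinase module, YAP regulators, TEAD cofactors, targets and CCN family), every gene past 1.5-fold, the outermost genes and the 3 most abundant. Marker lists are given by counts and sums. All further genes were named after their values were seen: Stk4, Taok3, Sav1, Map4k5, Scrib, Vgll1, Vgll2, Vgll3, Nov, Wisp2, Wisp3, Cd37, Myl7, Aldh1a2, Pdgfra, Crim1, Myof, Dock5, Nt5e, Foxf2, Fat4 and Dchs1. The members and lists were chosen with earlier results of these data known. Alternatives were other pseudocounts, filters, thresholds and scalings. The scripts were tested on simulated data with 200 genes of known difference. These were well expressed genes without noise, so the test checks the arithmetic and does not cover low levels. Promoter windows are those of RefSeq on GRCm38.p6. Python 3.11.15, NumPy 2.4.6, pandas 2.3.3 and Matplotlib 3.10.9 were used.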

Additional observations from a re-analysis of the deposited data

How the results depend on the processing

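No paired analysis was possible because each group has 1 pooled value and single embryos have none, and for the same reason the planned limma fits, with and without the replicate block and without each replicate in turn, were not run. The number of the 10 genes past the threshold was 0 with pseudocounts of 1 and 0.1 and with none, under each filter and scaling and at 2-fold. It was 1 (Ctgf) at the smaller mark of 0.32 on the log2(FPKM + 1) scale. The kinase module, YAP regulators, TEAD cofactors and targets, without the CCN family list, held 52 further genes that passed the filter. Of these, 2 were past 1.5-fold, 4 were past the mark of 0.32 and 0 were past 2-fold on the log2(FPKM + 1) scale. With a pseudocount of 0.1 or none Map4k2 was past 1.5-fold as well. Over all expressed genes the number past 1.5-fold was 425, and it was 880 with a pseudocount of 0.1, 891 with none and 232 where 5 FPKM was required in WT or KD, 1764 at the mark of 0.32 and 142 at 2-fold. Each of the 10 genes had the same sign in every alternative that kept it. Lats1, Tead3 and Tead4 do not reach 5 FPKM and have no value under that filter. Of the 10, the values that moved by 0.1 or more were those of Lats1, which was 0.53 with a pseudocount of 0.1 and 0.57 with none, and of Tead3, which was 0.34 and 0.36. With these pseudocounts Lats1 and Tead3 were thus past the mark of 0.32 beside Ctgf. Rescaling both columns to the same sum moved the median of all genes from 0.00426 to -0.0232 and left the family shares as they were by construction. Depth and the spread between embryos cannot be read from the pooled values, and the authors' own test columns were not used, so no difference is set against error here.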

Other observations

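Genes of the lists that stayed below an FPKM of 1 in both groups are given here as values only. Crim1, a membrane protein gene on the list of YAP and TEAD targets, had 0.870 in WT and 0.479 FPKM in KD, and Myof, which encodes a membrane repair protein, had 0.411 and 0.295 FPKM. Dock5 had 0.538 in WT and 0.751 FPKM in KD, and Nt5e had 0.629 and 0.685 FPKM. Foxf2 was at 0.00931 FPKM in WT and listed at 0 in KD. The protocadherin gene Fat4, whose fly relative acts upstream of the pathway, had 0.538 in WT and 0.440 FPKM in KD, and its ligand gene Dchs1, which passed the filter, had 1.12 and 1.05 FPKM. The depth of the libraries is unknown, so how far such low values can be told apart is unknown too.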
